A study of Mus musculus with 6 samples.

Results

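The cells described here are the iNKT1 cells of the mouse spleen, chosen by their own transcripts from 2 droplet libraries of sorted spleen iNKT cells. A cell was counted as iNKT1 when it had at least 1 UMI (a unique molecular identifier, the count of 1 captured mRNA molecule) in 2 or more of Tbx21, Il2rb, Klrb1c, Klrd1, Klrk1, Klrc1, Cd160 and Xcl1, and 0 UMIs of Gzma, Ccr7, Ccr6, Il23r and Top2a. The gate held 2787 of 5384 filtered spleen cells (51.8%), with 1494 of 2729 cells in spleen sample 1 and 1293 of 2655 in spleen sample 2. The series as a whole held 16532 filtered cells in 6 libraries, 2 each from spleen, liver and lymph node. All cells came from wild-type C57BL/6 mice aged 5 weeks, and no group received a treatment. Cells carrying CD8 or B220 were removed with magnetic beads, and the rest were sorted for TCR-β and a CD1d tetramer, which binds the invariant receptor of iNKT cells. The study's methods describe the 2 libraries of an organ as biological repeats, and how many mice gave each library is not stated in the sources used here. The labels give the molecule as nuclear RNA, while the protocol describes libraries made from whole sorted cells, and this was not settled.

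Invariant NKT cells are T cells with a nearly fixed receptor that recognises glycolipids on CD1d. They arise in the thymus, mature further after they leave it, and are divided into subsets by their transcription factors and cytokines. The iNKT1 subset depends on T-bet (encoded by Tbx21), responds to IL-15 through the receptor chain CD122 (Il2rb), carries receptors shared with NK cells and makes interferon-gamma. The iNKT2 subset has high PLZF (Zbtb16) and makes IL-4, the iNKT17 subset makes IL-17, and recent thymic emigrants keep Ccr7 and S1pr1. The spleen, the liver and the lymph node hold these subsets in different shares, and the question here was how iNKT1 cells of the spleen compare with the other spleen cells of the sort and with cells passing the same gate in the other organs.

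The libraries held 4768016 to 11086603 UMIs over all deposited barcodes, before cells were filtered. Gated spleen cells had a median of 1653 and 1461 UMIs in the 2 samples, against 1873 and 1700 in the remaining spleen cells. Gated liver cells were deeper, with medians of 3618 and 2881 UMIs, and gated lymph node cells had 1416.5 and 1211. The gate reads single UMIs, so a cell with more UMIs had more chances both to show markers and to be removed by an excluded gene. The 2 spleen libraries shared 10 cell barcodes, and the most shared by any 2 libraries was 20. Xist was read in each spleen and liver library (5401 to 10404 UMIs) and had 0 UMIs in both lymph node libraries, which instead held 1362 and 1579 UMIs of Y-linked Ddx3y, Eif2s3y, Kdm5d and Uty. In any comparison of spleen with lymph node, organ and sex therefore cannot be told apart.

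The label was checked against markers of T cells and of other cell types. Cd3d, Cd3e and Cd3g, the CD3 subunits, summed to 5627 and 5432 CPM (UMIs per 1e+06 summed UMIs) in gated cells of spleen samples 1 and 2, against 5419 and 5091 in the remaining cells. The NK cell list (Ncr1, Eomes, Klra4, Klra8) summed to 5.14 and 7.14 CPM, against 2.64 and 2.46 in the remaining cells, with 2 and 1 of its 4 genes at 0 in gated cells. The 2 CD8 genes summed to 5.14 and 2.60 CPM, the B cell genes to 2.06 and 1.95 CPM, and the platelet genes were at 0 in both samples. The myeloid list reached 224 and 206 CPM, of which Cst3 alone gave 217 and 202, with 5 and 3 of its 8 genes at 0. In the remaining cells of sample 1 the B cell genes stood at 15.8 CPM. CD3 was thus abundant, and the defining markers of NK, CD8, B cells and platelets were at or near 0.

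Most spleen cells outside the gate lacked markers rather than carrying an excluded gene. In spleen sample 1, 609 cells had 1 marker and 388 had none, while 123 had 2 or more markers together with an excluded gene and 115 had an excluded gene with fewer than 2 markers. The same 4 classes held 705, 414, 118 and 125 cells in spleen sample 2. Of the gated cells, 611 and 575 had exactly 2 markers, 458 and 428 had 3, 260 and 195 had 4, and 165 and 95 had 5 or more. The cells just outside the threshold were thus about as many as those just inside it in sample 1, and more in sample 2.

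**Figure D1:**
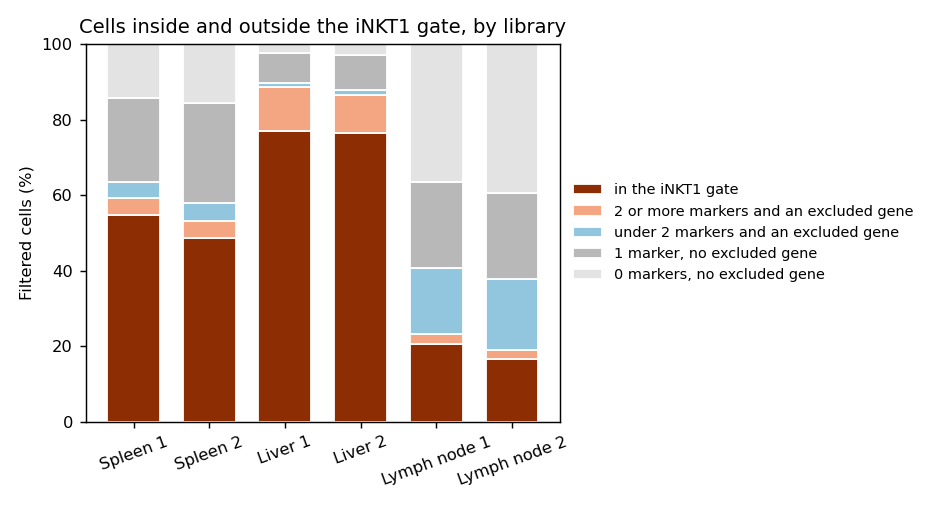
Share of filtered cells (%, vertical axis) of each library inside the iNKT1 gate and in 4 classes outside it. The gate holds 54.7% and 48.7% of the spleen cells, between the liver (77.0% and 76.3%) and the lymph node (20.5% and 16.5%).

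The gated share was 54.7% (Wilson 95% interval 52.9% to 56.6%, counting error only) in spleen sample 1 and 48.7% (46.8% to 50.6%) in spleen sample 2. Its mean was 51.7% ± 4.27 (SD, n = 2) in spleen, 76.6% ± 0.474 in liver and 18.5% ± 2.83 in lymph node. The organs did not overlap, but 2 libraries against 2 cannot give a two-sided exact permutation p below 0.3333, the value found in both comparisons. With every cell thinned to 1000 UMIs, and shallower cells left out, the shares were 36.6% ± 2.34 in spleen, 49.4% ± 1.95 in liver and 11.8% ± 1.54 in lymph node, in the same order. Thinning left out 60 and 83 gated spleen cells.

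The 8 markers differed in how often they put a spleen cell in the gate, and these values describe the rule and are no finding. Cd160, a receptor of NK and T cells, was read in 60.6% and 53.9% of gated cells of samples 1 and 2. Xcl1, a chemokine, was read in 46.3% and 42.5%, and Il2rb in 45.6% and 35.0%. Klrd1 (CD94) was read in 38.0% and 42.9%, Klrk1 (NKG2D) in 36.0% and 41.7%, and Klrb1c (NK1.1) in 36.8% and 35.0%. Klrc1 (NKG2A) was read in 20.9% and 22.0%. Tbx21 was the least often read, in 18.5% and 14.7% of gated cells at a summed level of 155 and 134 CPM. Cd160 with Xcl1 was the most frequent pair (27.0% and 21.6% of gated cells), and Tbx21 with Klrc1 the least frequent (2.74% and 1.93%).

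In gated cells of all 6 libraries, the gate markers had the following levels, which the rule itself helps to set and which do not rank the organs. Cd160 stood at 741 and 647 CPM in the spleen samples, against 414 and 425 in liver and 329 and 333 in lymph node. Il2rb stood at 434 and 346 CPM in spleen and at 826 and 866 in liver, with 283 and 373 in lymph node. Tbx21 stood at 155 and 134 CPM in spleen, 130 and 154 in liver and 100.5 and 108 in lymph node. The gate acts on these genes, so they were not tested.

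Gated and remaining cells of the same spleen library were compared first, as a description without a test, because the gate itself set them apart. Of 7557 genes with at least 30 UMIs in each spleen library, 205 (2.71%) were at least 1.5-fold apart in the same direction in both libraries, 63 (0.834%) higher and 142 (1.88%) lower in gated cells. With the 13 gate genes left out of the ranking, Klrc2 and Klre1, which encode NK receptors, had the largest ratios on the higher side, and histone and cell cycle genes led the lower side. Against the remaining cells without an excluded gene, 47 genes were higher and 29 lower. When a single library was used, 589 genes were apart without spleen sample 1 and 491 without spleen sample 2, since no second library then had to repeat the direction.

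**Figure D2:**
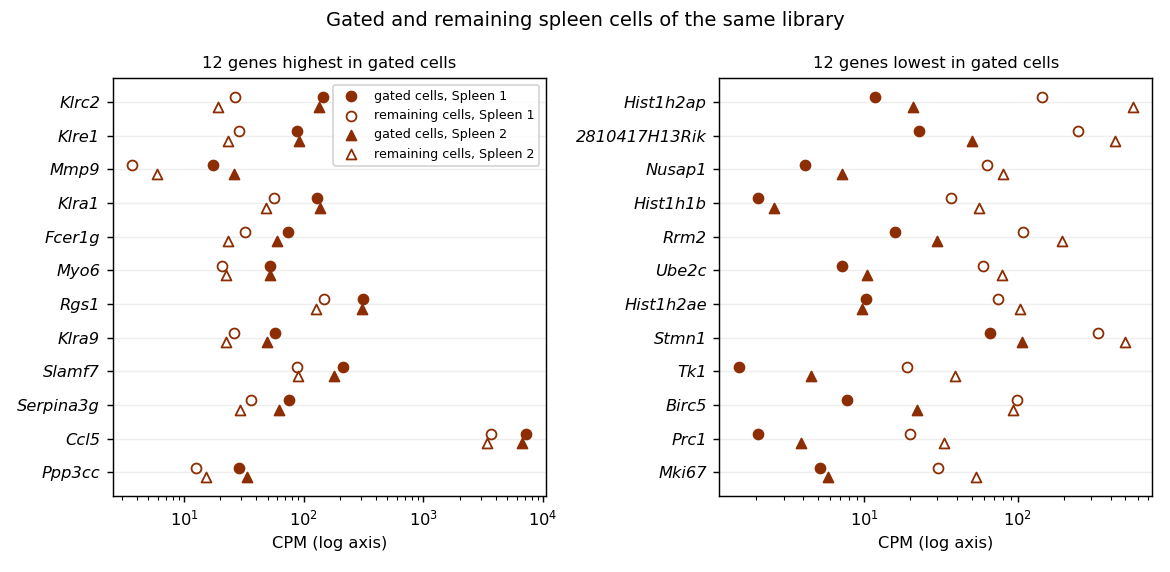
Level of the 24 genes furthest apart between gated cells (filled) and remaining cells (open) of each spleen library, in CPM on a log axis. Circles are sample 1 and triangles sample 2, and filled and open symbols are separated the same way in both samples for each gene.

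Klrc2, which encodes the activating receptor NKG2C, had the largest ratio outside the gate genes. It stood at 144 and 134 CPM in gated cells of samples 1 and 2, against 26.4 and 19.2 CPM in the remaining cells, a log2 ratio of 2.25 and 2.53. Klre1, which encodes another lectin-like receptor of NK cells, stood at 87.9 and 91.5 CPM, against 28.5 and 23.1. Klra1 (Ly49A), a receptor for MHC class I, stood at 129 and 136 CPM against 55.9 and 48.7. Klra9, of the same family, stood at 57.6 and 49.3 CPM against 25.8 and 22.1. In each of the 4 genes both gated values lay above both remaining values. Of 23 NK receptors listed beside the gate markers, 9 had enough UMIs, and 7 of the 9 were at least 1.5-fold higher, with a median log2 ratio of 1.01 against -0.02 over all 7557 genes.

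These receptors are neighbours in the genome. In the GENCODE vM21 annotation of GRCm38, Klre1 lies at chr6:129577905-129585827 on the plus strand, Klrc2 at chr6:129647496-129660689, Klra9 at chr6:130178675-130193112 and Klra1 at chr6:130363917-130386874, the last 3 on the minus strand. Several gate markers lie in the same cluster, the natural killer gene complex. Between the outermost receptors of the lists, chr6:128778485-130386874, 12 genes outside the gate were counted, and 9 of them were at least 1.5-fold higher in gated cells, including Cd69 and Clec2i. Members of the Klra and Klrc families have similar sequences, so the split of reads among them is uncertain.

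The cytotoxic and chemokine genes of iNKT1 cells followed. Ccl5, a chemokine stored by effector T cells, stood at 7207 and 6599 CPM in gated cells and at 3700 and 3416 in the remaining cells. Nkg7, a granule membrane protein of cytotoxic cells, stood at 2617 and 2645 CPM against 1365 and 1435. Fasl, the death ligand, stood at 92.5 and 107 CPM against 55.9 and 52.7. Ifng, the defining cytokine of the subset, was apart by less, at 89.9 and 70.8 CPM against 57.0 and 44.3. Of the 17 other iNKT1 markers, 9 were at least 1.5-fold higher and none lower, with a median log2 ratio of 0.76. Of 11 measured cytotoxic granule genes, 2 were higher and none lower.

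The 12 highest also held genes of other roles. Fcer1g, the 1 gene higher of 6 measured NK receptor adaptors and the signalling chain shared by Fc and NK receptors, stood at 73.5 and 59.1 CPM in gated cells against 32.2 and 23.1 in the rest. Slamf7, a receptor of NK and activated T cells, stood at 212 and 178 CPM against 87.5 and 88.6. Rgs1, a regulator of chemokine receptor signalling linked with tissue residence, stood at 314 and 306 CPM against 148 and 126. Mmp9 (17.5 and 26.0 CPM against 3.69 and 5.90), Myo6, Serpina3g and Ppp3cc completed the list.

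Of 19 genes of IL-15 and IL-2 signalling, 4 were at least 1.5-fold higher and none was lower, with a median log2 ratio of 0.30. Bcl2, the survival factor, stood at 114 and 116 CPM in gated cells against 63.3 and 74.8 in the rest. The feedback inhibitors Socs2 (82.2 and 81.2 CPM against 35.3 and 46.3) and Cish (33.4 and 31.2 against 18.5 and 10.8) were also higher. Bcl2l11, a promoter of cell death, was the other. Among 21 transcription factors with enough UMIs, 3 were higher and 2 lower. Bhlhe40, Prdm1 and Hopx were the higher ones, with Bhlhe40 at 90.5 and 63.6 CPM against 40.6 and 32.0. Tcf7, a factor of less differentiated T cells, and Id3 were the lower ones, with Tcf7 at 91.5 and 80.5 CPM against 151 and 129.

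The 12 genes furthest below the rest were histone and cell division genes. Hist1h2ap stood at 11.8 and 20.8 CPM in gated cells against 142 and 558 in the remaining cells. Mki67, the proliferation antigen Ki-67, stood at 5.14 and 5.84 CPM against 30.1 and 53.6, and Stmn1 at 66.3 and 106 CPM against 333 and 498. Of 10 cell cycle genes listed, 9 were lower. Top2a, itself a cell cycle gene, is among the excluded genes, so cycling cells were largely put outside by the rule. When no gene was excluded the order turned over: all 12 were higher in cells with 2 or more markers, with Mki67 at a log2 ratio of 0.83.

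Against remaining cells without any excluded gene, the lower genes were of another kind, and these genes were chosen after this dependence was seen. Il6ra, the IL-6 receptor, stood at 12.8 and 7.14 CPM in gated cells against 35.8 and 24.9. Ccr4, a chemokine receptor, stood at 6.68 and 7.14 CPM against 20.5 and 20.1, and Nrp1, an adhesion and guidance receptor, at 22.6 and 17.5 against 65.8 and 43.6. The galectin Lgals1 (1062 and 1058 CPM against 1815 and 1864) and the calcium-binding S100a6 (535 and 710 against 981 and 1214) were abundant on both sides. In the comparison with all remaining cells, S1pr1, Igfbp4 and Actn1 were the lower genes among 7 measured markers of recent thymic emigrants. Ccr4, Il6ra and Il17rb were the lower genes among 8 measured iNKT2 markers, and Zbtb16 was not among them. Il17rb and Pxdc1 were the lower genes among 6 measured iNKT17 markers.

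Levels were then read along the number of gate markers per cell, leaving out cells with an excluded gene. In spleen sample 1, Klrc2 stood at 1.80, 24.6, 64.1, 125 and 282 CPM in cells with 0, 1, 2, 3 and 4 or more markers. In spleen sample 2 the same classes gave 9.09, 20.1, 60.6, 136 and 285 CPM. Klre1 had a like course, from 3.61 to 181 CPM in sample 1 and from 7.27 to 231 CPM in sample 2. Just outside the threshold, cells with 1 marker held 24.6 and 20.1 CPM of Klrc2, and just inside it, cells with exactly 2 markers held 64.1 and 60.6. Across the same threshold Ifng stood at 72.5 and 72.8 CPM in sample 1 and at 53.6 and 63.5 in sample 2, and Fasl at 88.4 and 87.6 in sample 1 and at 67.1 and 92.4 in sample 2, so that not every gene set apart by the gate differed there in both samples.

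Ccl5 differed by smaller steps. It stood at 2598, 4809, 5812, 7878 and 8543 CPM across the 5 classes of sample 1 and at 2698, 4346, 5742, 6374 and 8725 CPM in sample 2. Nkg7 went from 1089 to 3211 CPM in sample 1 and from 1187 to 3171 in sample 2. Neither gene was near absent in cells with 0 markers. From 1 to 2 markers, across the threshold, Nkg7 went from 1721 to 2256 CPM in sample 1 and from 1819 to 2374 in sample 2. Klf2, a factor that keeps S1pr1 expressed and T cells circulating, went the other way, from 449 to 264 CPM in sample 1 and from 358 to 216 CPM in sample 2. Tcf7 went from 189 to 64.7 CPM and from 142 to 51.0 CPM, while Cd3e stayed between 854 and 1018 CPM in all classes. At 1000 UMIs per cell, Ccl5 still went from 3612 to 9501 CPM in sample 1 and from 3249 to 8838 in sample 2.

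**Figure D3:**
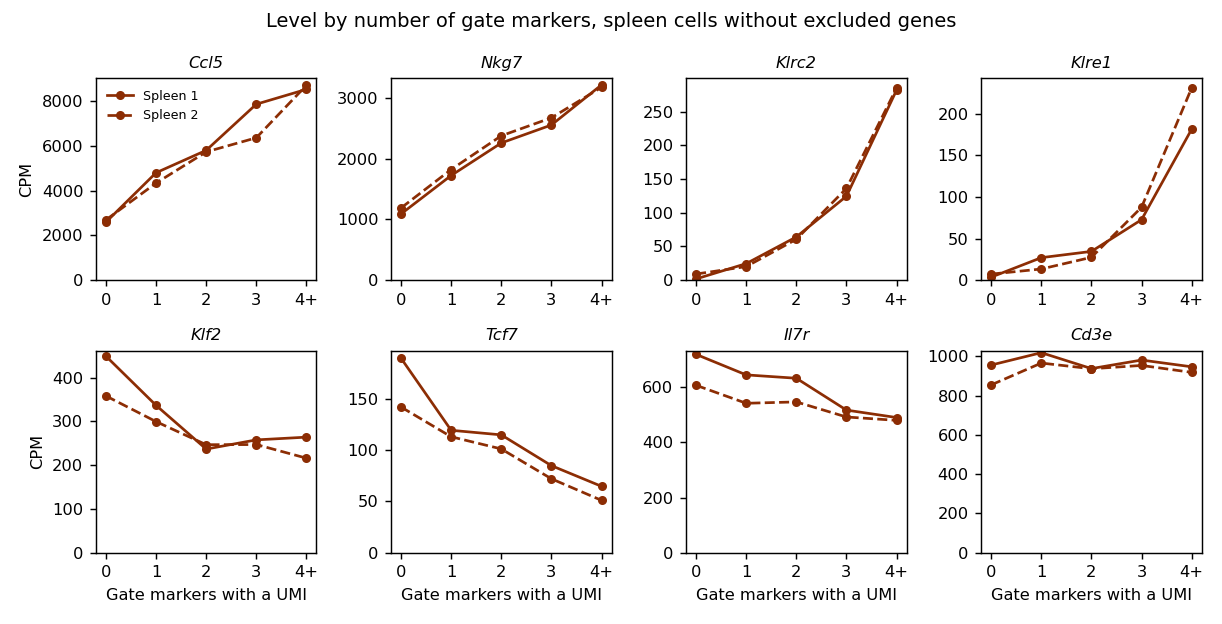
Level of 8 genes (CPM, linear axes from 0) in spleen cells without an excluded gene, by the number of gate markers with a UMI (4+ means 4 or more); solid and dashed lines are spleen samples 1 and 2, and Ccl5, Nkg7, Klrc2 and Klre1 increase with the number of markers, Klf2, Tcf7 and Il7r are higher at 0 markers than at 4 or more, and Cd3e is level.

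Gated cells also varied among themselves. The Fano factor, the variance divided by the mean of UMIs per cell, was taken over cells thinned to 1000 UMIs, 1434 in sample 1 and 1210 in sample 2. Taking for each of 3967 genes the smaller value of the 2 samples, the median was 0.979, near the value that random sampling gives, and the 90th percentile was 1.03. Actb, the cytoskeletal actin, was highest, at 12.8 and 14.4. Its median was 5 UMIs in both samples, with a 90th percentile of 24 and 27 and highest cells at 83 and 99 UMIs. The nuclear RNA Malat1 followed at 6.93 and 6.97.

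Ccl5 had a Fano factor of 4.65 and 4.42, and 9.27% and 10.6% of the thinned gated cells had no Ccl5 UMI. Klra1 and Klra3, both Ly49 receptors that are switched on in some cells of a population and not in others, had Fano factors of 2.46 and 3.04 and of 2.19 and 1.99. Klra1 was read in 66 of 1434 and 63 of 1210 cells, with up to 6 and 9 UMIs in a cell. Lgals1, S100a6, Lgals3, Ly6c2 and Crip1 completed the 10 highest, all between 1.86 and 2.54. Lgals1 was read in 474 and 453 cells.

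The gate was then applied alike in the liver and the lymph node, and UMIs were summed over gated cells of each library for edgeR's quasi-likelihood test. Summed UMIs were 1945626 and 1540189 in the spleen samples, 5214844 and 4409744 in liver, and 656643 and 527953 in lymph node. The 2 spleen sums had a Spearman correlation of 0.975 across 8946 genes, which are not independent replicates. In these sums, fewer cells of a kind and less RNA per cell cannot be told apart. Gate genes were left out of testing, and both comparisons share the 2 spleen libraries.

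Against the liver, spleen iNKT1 cells had lower mRNA of Bcl2, Socs2, Cish and Gzmb, and higher mRNA of Klf2, Id3, Junb and Dusp1. Of 8946 genes tested, 1782 (19.9%) passed an adjusted p of 0.05, 927 (10.4%) higher in spleen and 855 (9.56%) lower, and 370 of them were at least 2-fold apart. Without spleen sample 2 the count was 765, without spleen sample 1 it was 1142, and without liver sample 1 it was 1022. With libraries thinned to the smallest sum it was 468. DESeq2 called 602 genes, 600 of them among the 1782.

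All 11 called genes of the 19 in the IL-15 and IL-2 signalling list were lower in spleen, with a median log2 fold change of -0.62 over the list against -0.01 over all genes. Bcl2 stood at 114 and 116 CPM in spleen and at 912 and 584 CPM in liver. Its spleen values lay far below both liver values, with a log2 fold change of -2.62 ± 0.15 (SE, edgeR adjusted p = 1.93e-22). Socs2 stood at 82.2 and 81.2 CPM in spleen and 301 and 267 in liver (-1.72 ± 0.14, edgeR adjusted p = 1.74e-18). Il2ra, the high-affinity IL-2 receptor chain, stood at 20.6 and 22.1 CPM against 60.0 and 60.1. Cish (33.4 and 31.2 CPM against 104 and 77.6) and the kinase gene Pim1 (168 and 142 against 302 and 327) were lower as well.

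Il2rg and Jak1 did not pass, and Il2rb, a gate gene, was not tested. Il2rg, the common gamma chain, stood at 469 and 502 CPM in spleen and 438 and 460 in liver, and Jak1 at 317 and 310 against 412 and 361. In the 19 alternative fits the list held 7 to 12 lower genes and 0 higher ones, with 7 when cells were thinned to 1000 UMIs. Bcl2 and Socs2 were also lower in the spleen cells outside the gate, with Bcl2 at 63.3 and 74.8 CPM there and 492 and 337 CPM in remaining liver cells. So this difference of Bcl2 was seen in both gated and remaining cells.

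**Figure D4:**
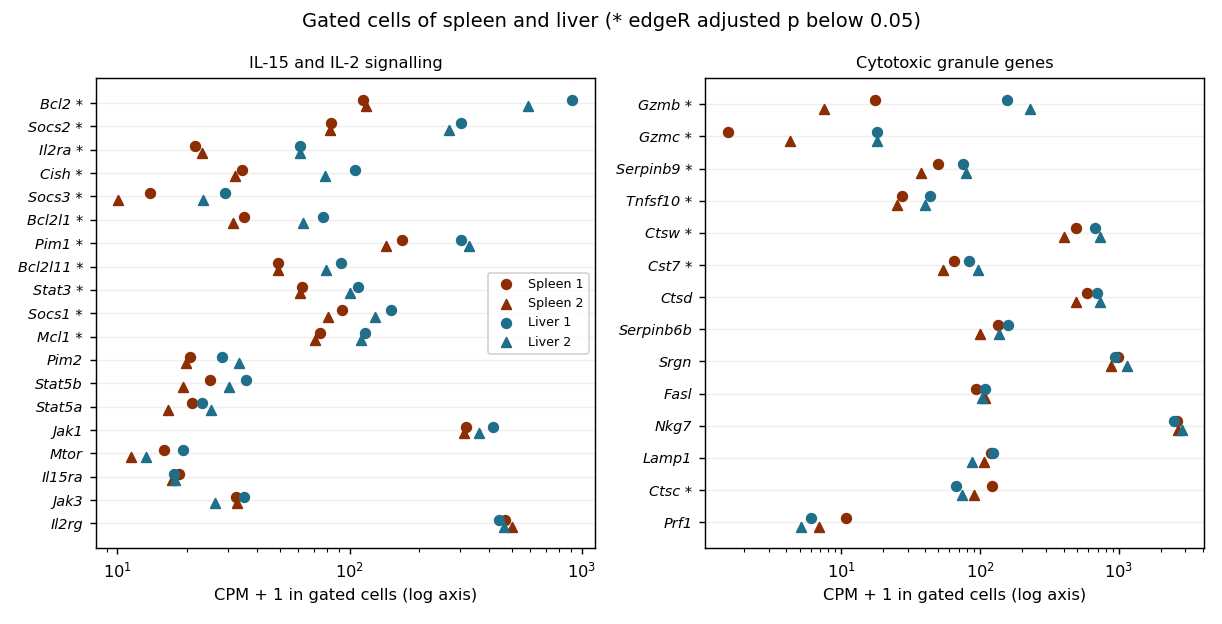
Level of IL-15 and IL-2 signalling genes (left) and cytotoxic granule genes (right) in gated cells, as CPM + 1 on a log axis, with spleen in brown and liver in blue (circles sample 1, triangles sample 2), genes sorted by fold change and asterisks marking an edgeR adjusted p below 0.05. Bcl2 and Gzmb are at the top of their panels, with spleen below liver.

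Of 14 cytotoxic granule genes tested, 6 were lower in spleen and 1 higher. Among the 6, Gzmc stood at 0.514 and 3.25 CPM in spleen and 17.1 and 17.0 in liver. It passed the low-count filter (edgeR filterByExpr, minimum count 10) only through the liver. Its direction was thus fixed by the filter, and it adds no support to the count. The lower genes numbered 2 without spleen sample 2, 3 with DESeq2, and 3 and 2 with libraries and cells thinned. Gzmb, granzyme B, stood at 16.4 and 6.49 CPM in spleen and at 154 and 228 CPM in liver, with no overlap (-3.92 ± 0.29, edgeR adjusted p = 1.09e-07). It was read in 1.27% and 0.773% of gated spleen cells and in 17.9% and 20.0% of gated liver cells, which were also deeper. Ctsw, a cathepsin of cytotoxic lymphocytes, stood at 486 and 402 CPM against 666 and 733, and lost its call without spleen sample 2. Nkg7 did not pass, with 2617 and 2645 CPM in spleen against 2478 and 2828 in liver (edgeR adjusted p = 0.772), and its small difference changed sign without liver sample 1. Ctsc, a cathepsin that activates granzymes, was the higher gene, at 120 and 89.6 CPM against 66.0 and 72.3, and lost its call in 2 of 19 alternative fits, without spleen sample 1 and with libraries thinned.

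Cytokine and chemokine genes went both ways, with 3 higher and 3 lower of 12 tested, and 2 and 2 without either spleen sample. Ccl5 was higher in spleen, at 7207 and 6599 CPM against 5160 and 4294 (0.63 ± 0.13, edgeR adjusted p = 0.000177). Ltb, lymphotoxin beta, was higher at 3014 and 2788 CPM against 1851 and 1717. Ifng was lower in spleen, at 89.9 and 70.8 CPM against 116 and 170 (-0.75 ± 0.16, edgeR adjusted p = 0.000515), and so was Tgfb1, at 127 and 115 against 247 and 190. The interferon-gamma receptor chain Ifngr1 stood at 194 and 211 CPM in spleen and 536 and 554 in liver.

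Klf2 and other markers of recent thymic emigrants were higher in spleen. Klf2 stood at 251 and 240 CPM in spleen and 127 and 113 in liver (1.11 ± 0.15, edgeR adjusted p = 2.01e-06). Of 7 tested markers of recent thymic emigrants, 6 were higher, with S1pr1 at 31.4 and 40.9 CPM against 19.2 and 22.9. The count was 4 of 8 without spleen sample 1, 2 of 8 without spleen sample 2 and 3 of 8 without liver sample 1. It was 1 of 7 with DESeq2, 1 of 4 with libraries or cells thinned, and 3 of 6 with at least 3 markers, and none was lower in any alternative. Cells with Ccr7 had been removed by the gate in both organs. Klf2 kept its call in all 19 alternative fits. S1pr1 lost its call in 5 of 18, namely without spleen sample 2, without liver sample 1, with DESeq2 and with libraries or cells thinned.

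Transcription factors gave 7 higher and 3 lower genes of 22, with 4 to 8 higher and 2 to 5 lower over the alternatives, the 5 without liver sample 2. Id3, an inhibitor of E proteins, stood at 29.8 and 41.6 CPM in spleen against 9.78 and 12.5 in liver (1.75 ± 0.24, edgeR adjusted p = 8.99e-09). Ikzf2, which encodes Helios, stood at 307 and 315 CPM against 143 and 129. Irf8, an interferon regulatory factor, stood at 20.6 and 20.1 CPM in spleen against 67.7 and 85.5 in liver, and Irf1 at 133 and 120 against 216 and 231. Zbtb16 did not pass, at 61.7 and 54.5 CPM against 92.8 and 71.4 (edgeR adjusted p = 0.053), and it passed as lower in 5 of 19 alternative fits, without liver sample 2 among them.

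NK receptors also split. Klra3, a Ly49 receptor, was higher in spleen at 55.5 and 78.6 CPM against 19.4 and 31.5 (1.47 ± 0.20, edgeR adjusted p = 2.36e-07). Klre1 was lower, at 87.9 and 91.5 CPM against 156 and 180 (-0.83 ± 0.14, edgeR adjusted p = 4.9e-06). In all, 4 of 14 tested were higher and 3 lower, against 2 and 1 of 16 without spleen sample 1, 4 and 2 of 16 without spleen sample 2, 3 and 2 of 15 without liver sample 1, 5 and 2 of 14 without liver sample 2, and 3 and 1 of 14 with DESeq2. Among homing and adhesion receptors, 4 of 20 were higher and 4 lower, against 2 and 4 without spleen sample 1, 3 and 2 without spleen sample 2, 3 and 7 without liver sample 1, and 1 and 2 with DESeq2. Klrb1b (3.08 and 1.95 CPM in spleen, 9.01 and 7.71 in liver) and Itga1 (2.57 and 4.54, 18.8 and 14.7) were among the lower genes. They passed the low-count filter only through the liver. Their direction was thus fixed by the filter, and they add no support to the counts. Cxcr6, a receptor for CXCL16, stood at 2333 and 2482 CPM in spleen and 1372 and 1840 in liver, and Cd44 at 124 and 115 against 236 and 222. Ccr10 was higher, at 19.5 and 16.9 CPM against 0.767 and 5.90, and lost its call in 4 of 19 alternative fits, namely without spleen sample 1, with DESeq2 and with libraries or cells thinned.

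Among called genes with at least 20 CPM in the higher organ, 2 heat shock genes had the largest fold changes against the liver. Hspa1b, an inducible HSP70 gene, had 3 UMIs in the summed spleen sample and 433 in liver, a ratio of 52.3 (95% counting interval 17.8 to 254) in favour of liver. Hspa1a likewise had 3 UMIs in spleen and 347 in liver, a ratio of 41.9 (14.2 to 204). The iNKT17 markers Tmem176a and Tmem176b were lower in spleen, Tmem176b at 28.8 and 26.6 CPM against 133 and 151 (-2.27 ± 0.17, edgeR adjusted p = 4.83e-20). Junb, an AP-1 subunit, stood at 892 and 760 CPM in spleen and 419 and 426 in liver, and Dusp1, a phosphatase induced by stimulation, at 159 and 137 against 76.1 and 57.6. Of 15 immediate early genes, 5 were higher in spleen and 0 lower. Whether tissue handling had a part in the heat shock and immediate early values was not tested.

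Against the lymph node, immediate early genes were lower in spleen iNKT1 cells, and Ccl5, Nkg7 and Ccr9 were higher. Of 8946 genes, 630 (7.04%) passed, 199 (2.22%) higher in spleen and 431 (4.82%) lower, and 333 of them were at least 2-fold apart. The count was 366 without lymph node sample 1 and 305 without lymph node sample 2. DESeq2 called 309 genes, 18.8% of them higher in spleen against 31.6% in edgeR. On the X chromosome 10 genes were higher and 15 lower of 276 tested, and all 5 tested Y-linked genes were lower, with organ and sex not told apart. Of the Y-linked genes, Ddx3y, Eif2s3y and Uty stood at 0 CPM in spleen and liver. They passed the low-count filter only through the lymph node, so their direction was fixed by the filter.

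All 15 immediate early genes, which T cells switch on within minutes of a stimulus, were lower in spleen. Of these, Atf3, Fosb and Nr4a2 passed the low-count filter (edgeR filterByExpr, minimum count 10) only through the lymph node. The direction of those genes was thus fixed by the filter, and they add no support to the count. The median log2 fold change of all 15 was -1.93, against 0.01 over all genes. Fos stood at 21.6 and 21.4 CPM in spleen and at 419 and 392 CPM in lymph node, far apart (-4.25 ± 0.19, edgeR adjusted p = 4.06e-38). Junb stood at 892 and 760 CPM against 4962 and 5122 (-2.62 ± 0.14, edgeR adjusted p = 3.88e-32), and Dusp1 at 159 and 137 against 1447 and 1500. Nr4a1 (Nur77), induced by T cell receptor signals, stood at 4.11 and 9.09 CPM against 128 and 87.1. Btg2 was closer, at 382 and 290 CPM against 515 and 570, and lost its call without spleen sample 2.

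Fos was read in 2.68% and 2.32% of gated spleen cells and in 32.3% and 30.1% of gated lymph node cells. Atf3 had 0 UMIs in spleen and 14 in lymph node, at least 13.7-fold higher in lymph node when the spleen is set to 3 counts over both samples. In the alternative fits, 10 to 15 of these genes stayed lower and none was higher. Fos stood at 31.1 and 22.6 CPM in the remaining spleen cells and at 589 and 617 in the remaining lymph node cells, so that this difference was seen outside the gate too. The part of tissue handling in it was not tested.

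**Figure D5:**
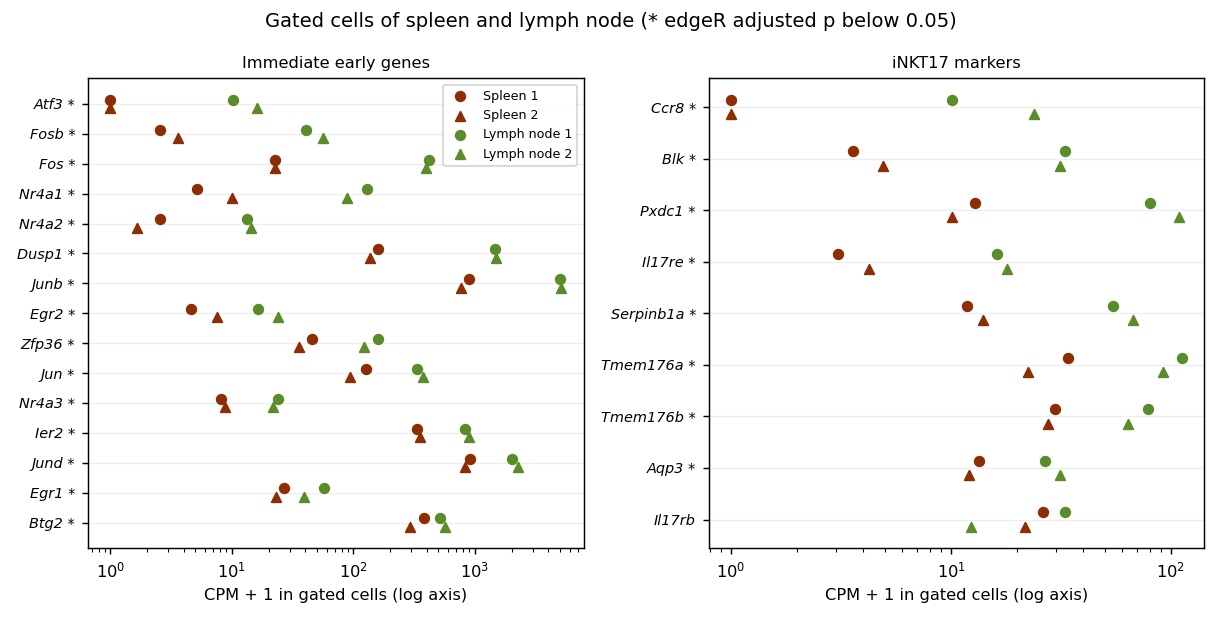
Level of immediate early genes (left) and iNKT17 markers (right) in gated cells, as CPM + 1 on a log axis, with spleen in brown and lymph node in green (circles sample 1, triangles sample 2), genes sorted by fold change and asterisks marking an edgeR adjusted p below 0.05. All immediate early genes and 8 iNKT17 markers carry an asterisk and lie lower in spleen.

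The iNKT17 markers were lower in spleen in 8 of 10 genes tested, with a median log2 fold change of -2.12. Among the 8, Blk, Ccr8 and Il17re passed the low-count filter only through the lymph node. Their direction was thus fixed by the filter, and they add no support to the count. Without the filter, 8 of 12 were lower. The count was 5 of 9 without lymph node sample 2, 4 of 7 with cells thinned, 5 of 7 with libraries thinned and 2 of 7 with at least 3 markers, within a range of 2 to 10 over the alternatives. Pxdc1 stood at 11.8 and 9.09 CPM in spleen and 79.2 and 108 in lymph node (-3.14 ± 0.29, edgeR adjusted p = 1.07e-15), and the kinase gene Blk at 2.57 and 3.896 against 32.0 and 30.3. Ccr8 had 0 UMIs in spleen and 18 in lymph node, at least 17.7-fold higher in lymph node. The summed list stood at 132 and 113 CPM in gated spleen cells and 454 and 458 in gated lymph node cells, and at 1505 and 1518 in the remaining lymph node cells. How far iNKT17 cells that pass the gate set these values was not tested.

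The iNKT1 genes outside the gate were higher in spleen in 6 of 17 cases and lower in 1. The higher genes numbered 3 to 13 over the alternatives, with 4 without lymph node sample 1, 3 with at least 3 markers and 13 with at least 1. Ccl5 stood at 7207 and 6599 CPM in spleen and 2103 and 2413 in lymph node (1.60 ± 0.14, edgeR adjusted p = 7.89e-18). Nkg7 stood at 2617 and 2645 CPM against 1371 and 1640 (0.79 ± 0.13, edgeR adjusted p = 3.49e-06), and Txk, a kinase of T cell receptor signalling, at 678 and 825 against 404 and 420. Ifng was the exception, at 89.9 and 70.8 CPM in spleen against 254 and 286 in lymph node (-1.75 ± 0.18, edgeR adjusted p = 5.14e-11). Among NK receptors, 3 of 14 tested were higher in spleen and 0 lower, Slamf7 and Klre1 included. The count was 1 higher and 1 lower of 11 with at least 3 markers, and 7 and 0 of 14 with at least 1 marker. Slamf7 stood at 212 and 178 CPM in spleen against 76.1 and 98.5 in lymph node. Klre1 lost its call without lymph node sample 1 and with at least 3 markers.

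Cytokine and chemokine genes held 5 lower and 1 higher of 12, Ifng and Ccl5 included, and 1 lower and 1 higher of 11 with at least 3 markers. Il13, a cytokine of iNKT2 cells, stood at 0.514 and 1.95 CPM in spleen and 32.0 and 17.0 in lymph node. It passed the low-count filter only through the lymph node. Its direction was thus fixed by the filter, and it adds no support to the count. Among IL-15 and IL-2 signalling genes, 2 of 19 were lower, Pim1 at 168 and 142 CPM against 434 and 377 and Socs3, which lost its call with libraries or cells thinned. The lower genes numbered 1 to 3 over the alternatives. Bcl2 did not pass there, at 114 and 116 CPM against 137 and 142. Among transcription factors, Hopx was higher in spleen at 232 and 275 CPM against 102 and 112 (1.23 ± 0.17, edgeR adjusted p = 2.58e-08). Bhlhe40 was lower at 90.5 and 63.6 against 175 and 169, and Tox, a factor of persistently stimulated T cells, at 27.8 and 22.1 against 64.0 and 96.6. Klf2 did not pass, at 251 and 240 CPM in spleen and a wide 111 and 227 in lymph node (edgeR adjusted p = 0.0652). It passed in 8 of 19 alternative fits, without lymph node sample 2 or either liver sample among them, and its sign turned when cells were thinned to 1000 UMIs.

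Homing receptors split, 4 higher and 4 lower of 20, with 3 and 2 without lymph node sample 2 and 2 and 2 with DESeq2. Ccr9, the receptor for the gut and thymus chemokine CCL25, stood at 90.5 and 76.0 CPM in spleen and 15.2 and 9.47 in lymph node (2.70 ± 0.31, edgeR adjusted p = 9.73e-12). In liver, Ccr9 stood at 108 and 122 CPM and missed the threshold (edgeR adjusted p = 0.053), which it passed in 5 of 19 alternative fits, without liver sample 1 among them. Itgae (CD103), which binds E-cadherin, stood at 3.08 and 4.54 CPM in spleen against 51.8 and 30.3 in lymph node. It passed the low-count filter only through the lymph node. Its direction was thus fixed by the filter, and it adds no support to the count of lower genes. Cxcr4 was lower, at 11.3 and 6.49 CPM against 36.5 and 47.4. Cd69, a marker of early activation and residence, stood at 101 and 107 CPM against 152 and 165, and lost its call in 6 of 19 alternative fits, namely without spleen sample 1, lymph node sample 1 or lymph node sample 2, with DESeq2, with cells thinned and with at least 3 markers.

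Genes outside the lists completed the picture. P2rx7, the ATP-gated channel, stood at 84.3 and 65.6 CPM in spleen and 4.57 and 7.58 in lymph node (3.64 ± 0.37, edgeR adjusted p = 8.77e-14), and Art2b, a surface ADP-ribosyltransferase, at 86.9 and 112 against 9.14 and 7.58. Gimap7, a GTPase of lymphocytes, stood at 536 and 450 CPM against 108 and 96.6. Cdkn1a, the cell cycle inhibitor p21, had 3 UMIs in spleen and 71 in lymph node, a ratio of 69.6 (22.9 to 346) in favour of lymph node. Sdc1 (CD138), a proteoglycan found on a group of iNKT17 cells, had 2 UMIs in spleen and 27 in lymph node, a ratio of 39.7 (9.98 to 345). Both Cdkn1a and Sdc1 passed the low-count filter only through the lymph node, so their direction was fixed by the filter. Xist was at least 563-fold higher in spleen, where it had 4973 UMIs against 0. Tsix, on the opposite strand of the same locus, had 404 against 0, and reads of the pair may not be fully told apart.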

How the data were processed

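The authors deposited UMI counts per gene and cell barcode for 6 libraries made with 10x 3′ chemistry, version 2. Reads were aligned to mm10 and counted with Cell Ranger 3.1.0 per the labels, which also name Seurat. From these counts, cells with 300 to 4000 genes and at most 15% mitochondrial UMIs were kept. The gate was applied to raw UMIs, and the members and gene lists were chosen with earlier results of these data known. No doublet caller was applied in the reported values, and leaving out the 2% of cells with the highest Scrublet scores was an alternative. Raw UMIs were summed over gated cells per library. CPM leaves out 189 ribosomal and haemoglobin genes, which took 24.0% to 35.0% of UMIs per library.

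The organs were compared with edgeR 4.0.16 in R 4.3.3, by the quasi-likelihood test with organ as the only term, TMM scaling and Benjamini-Hochberg adjustment over 8946 genes. The 13 gate genes were left out of testing. DESeq2 1.42.0 was an alternative. The edgeR fit and the thinning of cells were tested on simulated data, and the DESeq2 fit was not. Gated and remaining cells were compared on log2(CPM + 5) with a fold of 1.5 and a minimum of 30 UMIs. Single-cell steps used Python 3.11.15 and scanpy 1.11.5. Named genes were the 12 furthest apart per direction between gated and remaining cells, the 8 with the largest fold change per direction and organ among those at 20 CPM or more, up to 6 per gene list (the 4 most abundant and the 2 with the largest fold change), and 10 by Fano factor. Further list members were named after their values were seen. Positions come from GENCODE vM21 on GRCm38. The study's own cell annotation was not used here, so the gated cells need not match its clusters. A few genes of the lists are counted in the list totals but not reported here by name.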

Additional observations from a re-analysis of the deposited data

How the results depend on the processing

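Of 99 named genes called against the liver, 38 kept their call in all alternative fits, as did 44 of 84 against the lymph node. Counting every named gene in every fit, called or not, 224 values lost a call, 10 gained one and 3 reversed against the liver, and 172, 8 and 1 did so against the lymph node. Against the liver, 1782 called genes became 602 with DESeq2, 468 with libraries thinned to the smallest sum, 780 with cells thinned to 1000 UMIs and 1178 with at least 3 markers, and ranged from 765 to 1814 with a library left out. Against the lymph node, 630 became 309 with DESeq2, 387 with libraries thinned, 266 with cells thinned, 296 with at least 3 markers and 1125 with at least 1 marker, and ranged from 305 to 706 with a library left out. Fewer UMIs, libraries or cells entered the thinned, left-out and 3-marker fits, and the cause of the changed counts was not tested for any fit. The replicate block gave 2166 and 730 called genes. Same-numbered libraries deviated together by correlations of only 0.075, 0.033 and 0.032. With 2 libraries per organ, this check cannot decide whether the numbers pair the samples.

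The gated share of spleen cells was 36.6% with thinned cells, 29.7% with at least 3 markers, 76.2% with at least 1, 56.2% with no genes excluded and 47.2% with a stricter gate, chosen after seeing the data, that excluded 6 more genes of other subsets, and 48.7% to 54.7% in single libraries. The 205 genes apart between gated and remaining cells became 135 with cells weighted equally, 76 against remaining cells without excluded genes, 118 with thinned cells and 88 with no genes excluded, and 491 to 589 in single libraries. With excluded genes kept out of the remaining cells too, the log2 ratio turned to 0.22 for Hist1h2ap, 0.43 for 2810417H13Rik and 0.29 for Rrm2. With no genes excluded it was 1.18 for both Hist1h2ap and 2810417H13Rik, 1.10 for Nusap1, 0.93 for Hist1h1b, 0.83 for both Rrm2 and Mki67, 0.62 for Ube2c, 0.75 for Hist1h2ae, 0.31 for Stmn1, 0.85 for Tk1, 0.57 for Birc5 and 0.59 for Prc1, since cycling cells then enter the gate. Irf7 turned to -0.17 against the liver with libraries thinned, Klf2 to -0.030 against the lymph node with cells thinned, and Nkg7 to -0.063 against the liver with at least 1 marker, ranging from -0.065 without liver replicate 1 to 0.18 without liver replicate 2. Genes with few UMIs in the lymph node sums are limited by depth.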
